A study of Drosophila melanogaster with 4 samples.

Results

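The Hox genes of Drosophila melanogaster lie in a pair of clusters on chromosome arm 3R, the Antennapedia complex (lab, pb, Dfd, Scr and Antp) and the bithorax complex (Ubx, abd-A and Abd-B). Regions bound by elongating RNA polymerase II in cultured Kc167 cells were examined over both complexes. The Antennapedia complex was taken as 3R:2480000-2840000 and the bithorax complex as 3R:12480000-12810000, in release 5 coordinates of the fly genome, and every deposited region that overlapped either window was kept. Of the enriched regions, here called clusters, 10 of 5207 in replicate 1, 10 of 5190 in replicate 2 and 10 of 5566 in a combined set fell in the complexes. In each of these sets 4 lay in the Antennapedia complex and 6 in the bithorax complex.

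Hox genes encode homeodomain transcription factors that give each body segment its identity along the head-to-tail axis. Once their pattern is set in the early embryo, Polycomb-group proteins keep them silent in cells where they are off, and trithorax-group proteins keep them active where they are on. The polymerase signal used here comes from the C-terminal repeat of its largest subunit, YSPTSPS, phosphorylated at serine 2. This mark builds up on the polymerase as it travels through the body of a transcribed gene.

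Kc167 is an established female line derived from late embryos, with genotype se/e in the labels. Of the 4 samples, 2 are ChIP libraries made with the rabbit polyclonal antibody ab5095 and 2 are input DNA. All come from this line, fixed with formaldehyde, and per the labels' protocols the content of several flasks was combined. The inputs were not analysed here. Whether the replicates were separate cultures is not stated, so that their spread may be technical. Regions with a position and a score were deposited for each ChIP library, with a combined set for the series. Scores are the authors' own, on an unstated scale, and are used to describe and rank clusters within a set. Read counts were not part of these files, so depth is unknown. A stretch without a cluster is one in which the authors listed no enrichment, which does not show that polymerase was absent.

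The files give positions without gene names. The gene table used here describes release 6, so no gene could be placed on the clusters, and it served only for names and order. All 8 Hox genes were found in it. In the Antennapedia complex the order along the arm is lab, pb, Dfd, Scr and Antp. The first of these act in the head, while Antp specifies thoracic segments and their legs. Between lab and Antp the table lists 15 other protein-coding genes. They include zen and zen2, bcd, which encodes the maternal morphogen of the anterior embryo, the segmentation gene ftz, and 7 Ccp84A genes, annotated as cuticle proteins. The microRNA genes mir-993 and mir-10 lie there as well. In the bithorax complex the order is Ubx, which acts in the posterior thorax and anterior abdomen, abd-A, which acts in the abdomen, and Abd-B, which acts in its most posterior segments. Between Ubx and Abd-B the table lists 3 other protein-coding genes and 7 long noncoding RNAs, among them bxd, iab4 and iab8. The microRNAs mir-iab-4 and mir-iab-8 lie there too. Next to the Hox genes, lab has agt on its outer side and Ubx has modSP, whereas VhaM9.7-d is the next protein-coding gene after Abd-B.

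Both complexes held little sequence listed as enriched in elongating polymerase. Clusters covered 3.24% of the Antennapedia window in replicate 1 and 3.39% in replicate 2, a mean of 3.31% ± 0.10 (SD, n = 2). For the bithorax window the values were 3.53% and 3.50%, with a mean of 3.51% ± 0.02 (SD, n = 2). The arm 3R as a whole was covered over 18.1% in replicate 1 and 18.5% in replicate 2. The difference between each complex and the arm was larger than the spread between the libraries. This spread does not show how much covered share varies along the arm. The combined set gave 3.41% for the Antennapedia window and 3.63% for the bithorax window, against 20.2% of the arm.

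Set against the arm, the complexes made up 2.47% of the length of 3R. They held 0.93% of its clusters in each replicate, and 0.46% of its covered sequence in each. Cluster density was 11.1 per Mb in the Antennapedia window and 18.2 per Mb in the bithorax window in either replicate, while the arm carried 38.7 and 38.3 per Mb. The complexes therefore differed from the arm both in how many clusters they held and in how wide these were. The median width in the complexes was 1964.5 bp in replicate 1 and 1959.5 bp in replicate 2, against 3018 and 3094.5 bp for the other clusters of 3R.

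**Figure D1:**
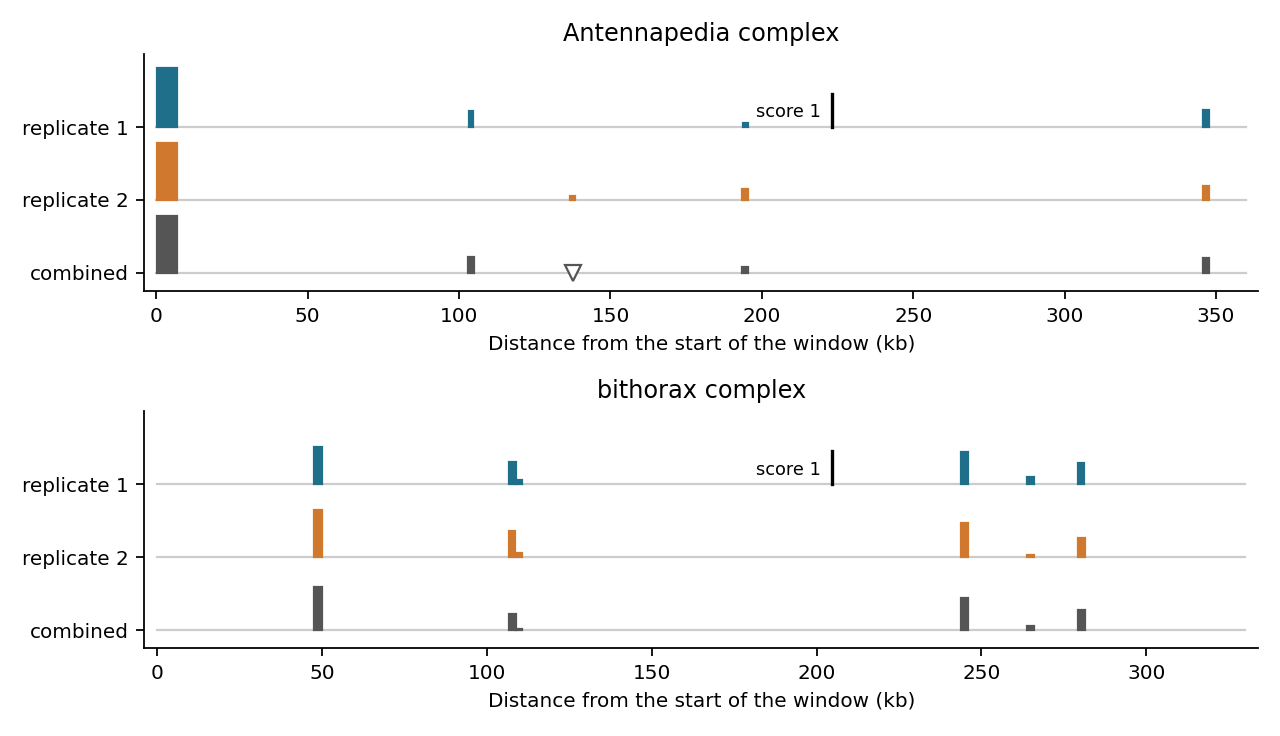
Clusters of both Hox complexes in each set, drawn to scale along the window (horizontal axis, distance from the window start in kb); bar height is the authors' score, with a scale bar of 1, and the open triangle is a region listed as depleted. Each set holds 4 clusters in the Antennapedia complex and 6 in the bithorax complex, and 9 of the 11 sites are present in both replicates.

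The clusters of the 3 sets fell on 11 sites, numbered here A1 to A5 and B1 to B6 in the order of their positions. Of these, 9 were found in both replicates. That is 9 of 10 clusters of each replicate, against 96.5% of the other 3R clusters of replicate 1 and 94.6% of those of replicate 2. In each replicate 1 cluster of the complexes had no counterpart, and both of these lay in the Antennapedia complex. The edges of the shared clusters were set within 8 to 98 bp of each other at the start and within 5 to 163 bp at the end.

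At the left edge of the Antennapedia window, A1 was the widest and highest-scoring site in either complex. It ran from 2480295 to 2486703 in replicate 1, with a score of 1.80, and from 2480282 to 2486685 in replicate 2, with a score of 1.74. Its widths of 6409 and 6404 bp made up 54.9% and 52.5% of all covered sequence in the window. A1 started only 0.30 and 0.28 kb inside the window, and the nearest cluster outside was 6.39 kb away in replicate 1 and 4.95 kb in replicate 2. Whether A1 belongs to lab or to a gene beside the complex could not be decided, since no gene was placed. Without it, a value added after the data were seen, the covered share of the Antennapedia window was 1.53%.

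The interior of the Antennapedia complex held only narrow and weak clusters. Site A2, from 2583219 to 2584702, had a score of 0.50 in replicate 1 and was not listed in replicate 2. Site A3, from 2616556 to 2618426, had a score of 0.11 in replicate 2 and was not listed as enriched in replicate 1. The combined set kept A2, with a score of 0.50, and listed A3 with the opposite sign, as a region of depletion from 2616554 to 2618421. Its score of -0.00082 was higher than that of 98.6% of the 74 depleted regions of that set, so it was the closest to 0 among them. This was the only depleted region in either complex in any of the 3 sets, while 3R held 4, 4 and 21 of them in replicate 1, replicate 2 and the combined set.

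Site A4, near the middle of the window, was found in both replicates, from 2673643 to 2675417 in replicate 1 and from 2673613 to 2675538 in replicate 2. Its scores were 0.12 and 0.34, and these replicates thus differed by 0.21. Only 0.69% of all replicate 1 clusters and 5.41% of replicate 2 clusters had a lower score. Site A5, from 2825564 to 2827564 in replicate 1, lay 12.4 kb from the right edge of the window and scored 0.51 and 0.43 in replicates 1 and 2.

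In the bithorax complex, all 6 sites were present in both replicates and in the combined set. Site B1 had the highest score, 1.14 in replicate 1 and 1.45 in replicate 2, and ran from 12527671 to 12529805 in the former. It was 2135 and 2224 bp wide in the respective replicates, which made it the widest site of this complex. The score difference of 0.31 between replicates was the largest at any shared site of the complexes; on the rest of 3R, 95% of 882 clusters matched one to one differed by less than 0.27.

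A closely spaced pair followed. B2 ran from 12586805 to 12588653 in replicate 1 and scored 0.69 in replicate 1 and 0.78 in replicate 2. B3 began 0.29 kb further on in replicate 1 and 0.43 kb further on in replicate 2, and scored 0.13 and 0.12. In the combined set the scores were 0.49 for B2 and 0.05 for B3. The median of that whole set was lower too, 0.98 against 1.10 and 1.12 in replicates 1 and 2. By rank, 26.3% of combined clusters scored lower than B2, against 27.6% in replicate 1 and 32.4% in replicate 2. For B3 the shares were 0.54% in the combined set, 0.75% in replicate 1 and 0.92% in replicate 2. The 20 kb bin that held the pair was the most densely covered of the bithorax window, 17.5% in replicate 1 and 16.5% in replicate 2.

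The last 3 sites lay in the distal part of the window. B4 ran from 12723902 to 12725979 in replicate 1 and scored 0.99 and 1.03 in replicates 1 and 2, below the set medians of 1.10 and 1.12. B5, from 12743902 to 12745829, was among the weakest sites, with 0.21 in replicate 1 and 0.08 in replicate 2. Only 2.00% and 0.48% of clusters of the respective sets had a lower score. B6, from 12759237 to 12761237, scored 0.66 and 0.57. From B6 to the right edge of the window, 48.8 kb in replicate 1 and 48.7 kb in replicate 2 held no cluster.

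The sites of the complexes ranked low in score. In replicate 1 and in replicate 2, 8 of 10 clusters scored below the median of their set, where the rest of 3R had 49% and 50% of its clusters below it. The median score in the complexes was 0.59 in replicate 1 and 0.50 in replicate 2. Only A1 and B1 stood above the set median in each replicate. In the combined set 7 of 10 clusters scored below the median, since B4 stood just above it there, with 0.987 against 0.983. Between replicates the shared sites differed by a median of 0.09 in score, against 0.07 for matched clusters on the rest of 3R. Of the 9, 4 were higher in replicate 2 and 5 in replicate 1.

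**Figure D2:**
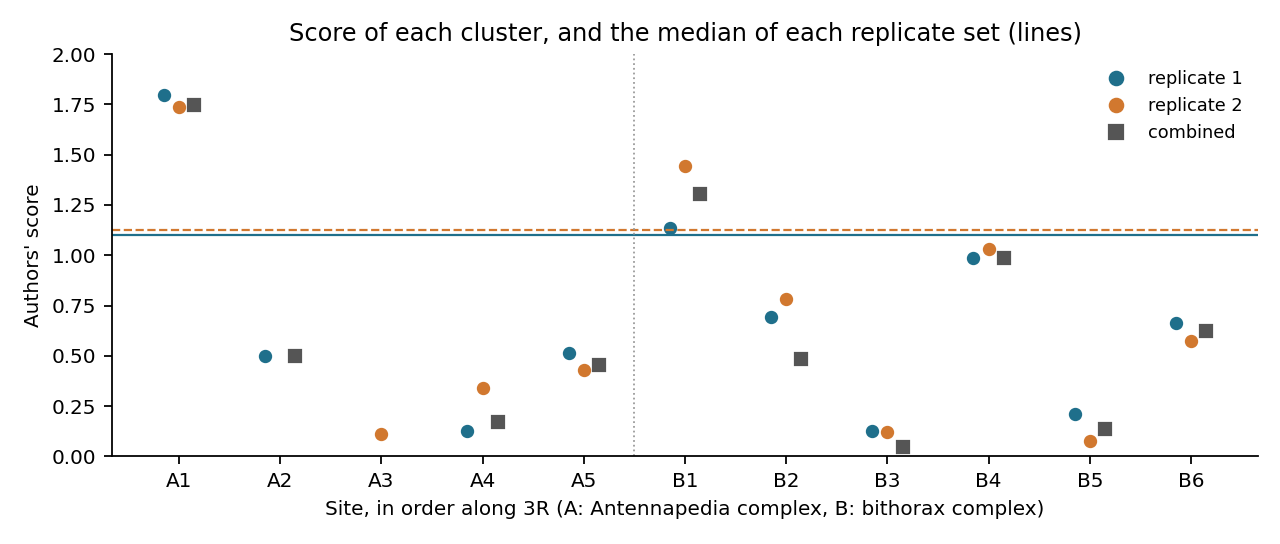
The authors' score (vertical axis) of each cluster at the 11 sites in order along 3R, for both replicates and the combined set, with horizontal lines at the median score of each replicate set (1.10 and 1.12). A1 and B1 lie above the replicate medians, and A2 and A3 have a point for 1 replicate only.

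The regions on either side were then compared with the complexes. The 500 kb on the left of the Antennapedia window were covered over 7.34% in replicate 1 and 7.91% in replicate 2, and the 500 kb on the right over 12.1% and 13.3%. The pooled flanks stood at 9.71% and 10.6%. The complex minus its flanks came to -6.47 percentage points in replicate 1 and -7.20 in replicate 2, a mean of -6.83 ± 0.52 points (SD, n = 2), and the flanks held 3.06 ± 0.09 times the covered share of the complex. These flanks were themselves poorer in clusters than the arm.

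Around the bithorax window the contrast was steeper. The left flank was covered over 26.9% and 27.6% in replicates 1 and 2 and the right flank over 15.4% and 15.5%, which placed the pooled flanks at 21.2% and 21.6%. The complex minus its flanks came to -17.6 points in replicate 1 and -18.1 in replicate 2, a mean of -17.8 ± 0.29 points (SD, n = 2). The flanks held 6.08 ± 0.11 times its covered share. For both complexes the difference exceeded the replicate SD. These differences were not tested: with 2 replicates the smallest two-sided p of an exact sign-flip test is 0.5.

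The edges of the bithorax window fell close to covered sequence. In replicate 1 a cluster of 6557 bp with a score of 2.00 ended 0.99 kb before the window, and in replicate 2 a cluster of 6570 bp with a score of 1.99 ended 0.97 kb before it. On the other side the nearest cluster began 4.96 kb past the window in replicate 1 and 5.11 kb past it in replicate 2. Moving both edges outward by 20 kb raised the covered share of the bithorax window to 9.68%, whereas moving them inward by 20 kb gave 4.00%. For the Antennapedia window, the same inward move took away A1 and A5 and left 1.10%.

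Among the named clusters of the flanks, the highest score beside the Antennapedia complex belonged to 3R:2895758-2907036, 55.8 kb to the right. It scored 2.51 in the combined set, 2.85 in replicate 1 and 2.60 in replicate 2. The widest began directly after it, from 2907051 to 2923393, 16343 bp with a combined score of 2.24; this is a single cluster in the combined set only, and each replicate listed 2 clusters there. On the left the highest was 2230065 to 2234564 with a combined score of 2.18, and the widest 2191803 to 2198150 with 6348 bp. Beside the bithorax complex the highest score on the left was 3.24, from 12010147 to 12017096, and the widest cluster there spanned 14332 bp from 12266252 to 12280583 in the combined set, where replicate 1 listed 2 clusters and replicate 2 listed 1. On its right the highest score was 2.68, from 12943615 to 12945994, and the widest cluster measured 13641 bp, from 12894261 to 12907901. Both highest-scoring clusters beside the bithorax complex, and both beside the Antennapedia complex, exceeded every cluster inside either complex.

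**Figure D3:**
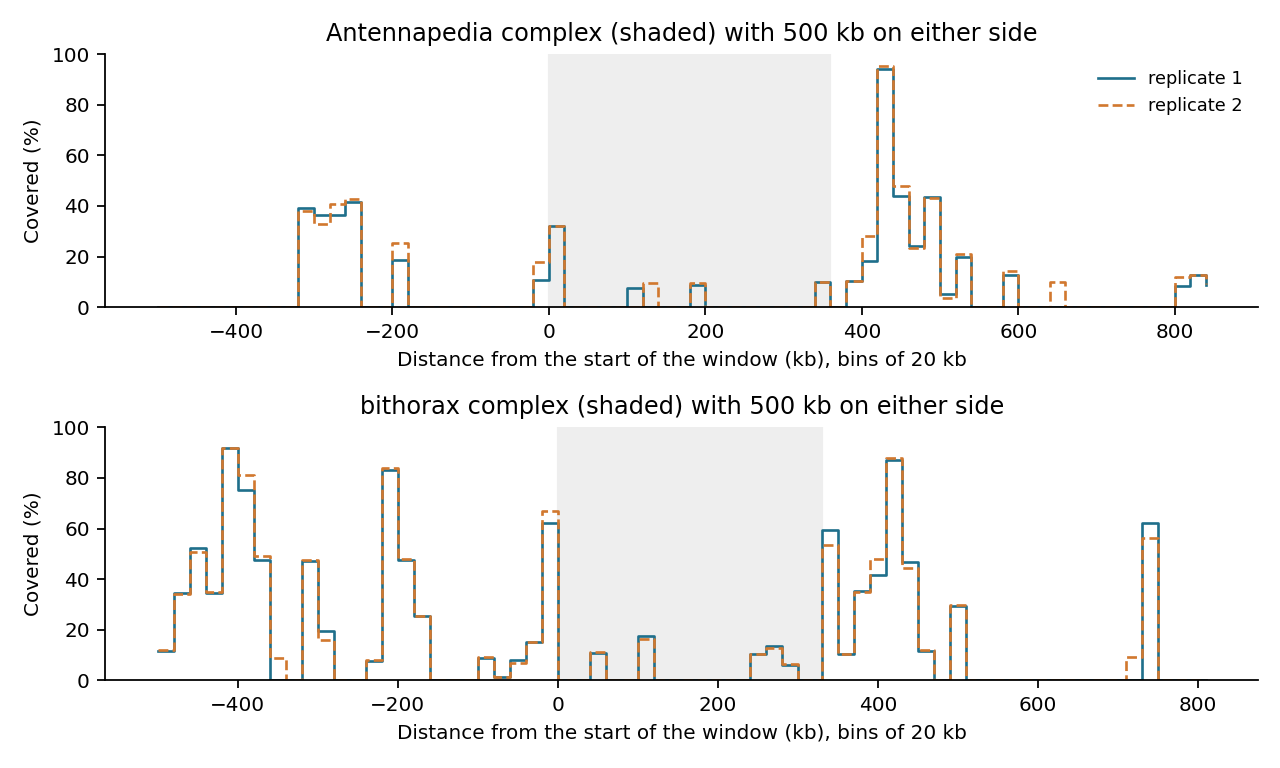
Share of each 20 kb bin covered by clusters (vertical axis, percent) against distance from the window start in kb, for the complexes (shaded) and 500 kb on either side, in both replicates. The highest bin inside a window, which holds A1, stands at 32.0% in either replicate, and the bins next to the bithorax window rise above all bins inside it.

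In bins of 20 kb, counted in each replicate separately, 14 of 18 bins of the Antennapedia window and 12 of 17 of the bithorax window held no covered base. In the Antennapedia window the empty bins were not all the same, since the bins that hold A2 and A3 were each covered in 1 replicate only. On the rest of 3R such empty bins made up 45.9% in replicate 1 and 45.5% in replicate 2. The left flank of the Antennapedia complex resembled the complex itself in this respect, with 19 of 25 bins empty in each replicate, and the right flank had 13 and 12 of 25. The left flank of the bithorax complex had 7 of 25 empty bins in replicate 1 and 6 in replicate 2, whereas its right flank had 16 and 15. The bins of the bithorax flanks that were not empty reached a coverage of 91.7% on the left and 87.2% on the right in replicate 1, where the highest bin inside the complex had 17.5%.

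All other windows of the same length on 3R, placed every 10 kb and clear of both complexes, served as background. The median window of 360 kb was covered over 17.0% in replicate 1 and 17.4% in replicate 2. A covered share at or below that of the Antennapedia complex occurred in 0.727% of 2614 windows in each replicate, which was 19 windows that formed 3 separate stretches. For the bithorax complex it occurred in 1.52% of 2623 windows of 330 kb in replicate 1 and in 1.37% in replicate 2. These were 40 and 36 windows in 5 stretches. The place of the bithorax complex depended on the window edges: over both replicates the mean was 1.45% of windows, but 14.3% with the edges moved outward by 20 kb and 3.14% with the edges moved inward. For the Antennapedia complex the same moves gave 0.96% and 0.23%, against a mean of 0.73%. Neighbouring windows share most of their sequence, so these shares describe the arm and carry no p. Of windows that do not overlap each other, 1.37% of 73 were at or below the Antennapedia complex, and 0 of 80 at or below the bithorax complex.

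**Figure D4:**
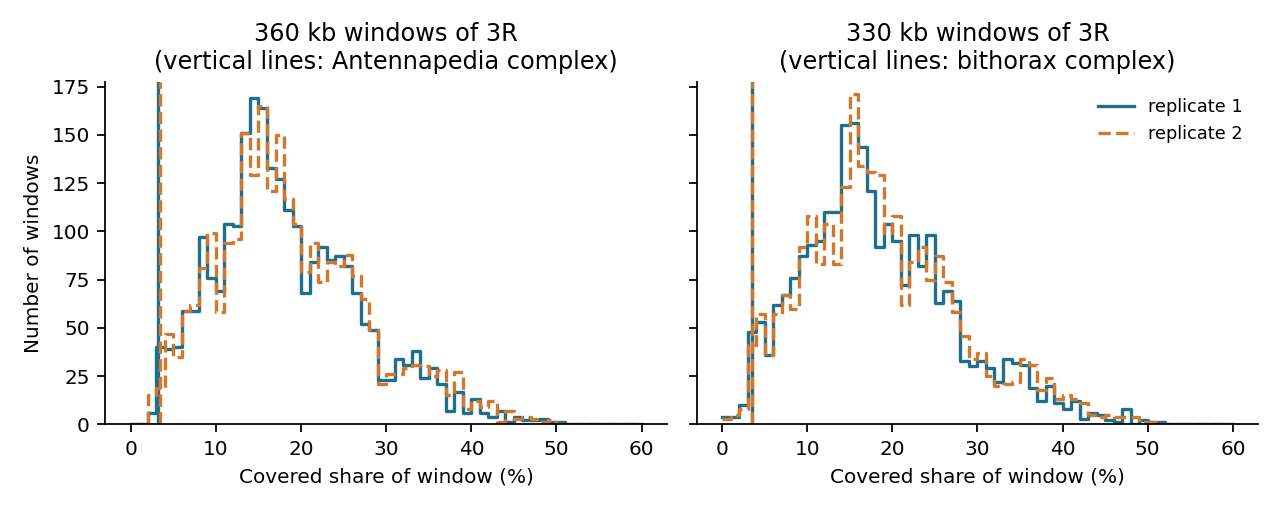
Number of 3R windows (vertical axis) by covered share in percent (horizontal axis, steps of 1 point) in both replicates, for windows of 360 and 330 kb; vertical lines mark the Antennapedia complex (3.24% and 3.39%) and the bithorax complex (3.53% and 3.50%). With the window bounds used here both complexes lie in the left tail of the arm; with edges moved outward by 20 kb, 14.3% of windows are at or below the bithorax complex.

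By number of clusters alone the complexes were less extreme. A count of 4 or fewer was found in 2.79% and 2.91% of 360 kb windows in replicates 1 and 2, and a count of 6 or fewer in 10.2% and 10.7% of 330 kb windows. The bithorax complex lay further toward the low end by the size of its clusters. Its widest cluster was matched or undercut in 0 of 2623 windows in replicate 1 and in 0.114% in replicate 2, where the median window had a widest cluster of 14237 and 13811 bp, respectively. Its highest score was matched or undercut in 0.152% and 0.953% of windows. Both measures depend on the left edge of the window. A cluster that touched a window counted with its whole width and score. In replicate 1 a cluster of 6557 bp with a score of 2.00 ended only 0.99 kb before this edge. In replicate 2 it was 6570 bp with a score of 1.99, 0.97 kb before the edge. Neither measure was repeated with moved edges. In the Antennapedia complex, where A1 set both values, the shares were 4.97% and 6.35% for the widest cluster and 4.32% and 5.93% for the highest score. These comparisons of width and score were added after the data were seen.

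The longest stretch without a cluster was nearly the same in both replicates for each complex. In the Antennapedia complex it lay between A4 and A5, from 2675418 to 2825563 in replicate 1 and from 2675539 to 2825576 in replicate 2. Its lengths of 150.1 and 150.0 kb gave a mean of 150.1 ± 0.08 kb (SD, n = 2). In the bithorax complex it lay between B3 and B4, from 12590592 to 12723901 in replicate 1 and from 12590554 to 12723891 in replicate 2. It was 133.3 kb long in either replicate, with a mean of 133.3 ± 0.02 kb (SD, n = 2). Both stretches lay wholly within their windows.

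By rank these were among the longer empty stretches of the arm, where 50 in each replicate measured 100 kb or more. The Antennapedia stretch ranked 21 of 1081 by length in replicate 1 and 22 of 1071 in replicate 2, and the bithorax stretch ranked 30 and 29. The longest on 3R measured 334.0 kb in replicate 1 and 334.3 kb in replicate 2, and the median was 6210 and 6224 bp. An empty stretch at least as long as that of the Antennapedia complex was found in 19.4% of 360 kb windows in replicate 1 and 20.2% in replicate 2. For the bithorax complex the shares were 25.8% and 25% of 330 kb windows. A long stretch lies in many overlapping windows, so these shares do not count separate stretches. Set against these windows of equal length, the complexes were thus further toward the extreme in covered sequence than in their longest gap. Windows that do not overlap each other were not used for the gap, so how unusual it is was not settled.

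Of the 12 empty stretches that touched a complex, 6 were 50 kb or longer in each replicate, against 12.6% of all stretches of 3R in replicate 1 and 12.7% in replicate 2. Whole lengths were used, also where a stretch ran past a window edge. The stretch after B6 reached 50 kb only with sequence outside the window, since 48.8 kb in replicate 1 and 48.7 kb in replicate 2 lay inside. A long stretch is also more likely to touch a window, so the shares do not compare like with like. In the Antennapedia complex the stretch from A1 to A2 measured 96.5 kb and that from A2 to A4 88.9 kb in replicate 1. Replicate 2, in which A3 takes the place of A2, split the same sequence into 129.9 and 55.2 kb. In the bithorax complex, B1 and B2 stood 57.0 kb apart in either replicate. The stretch before B1 was 48.7 kb in replicate 1 and 48.6 kb in replicate 2, and that after B6 was 53.7 and 53.8 kb. B4, B5 and B6 were closer together, with gaps of 17.9 and 13.4 kb in replicate 1 and 17.9 and 13.5 kb in replicate 2.

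**Figure D5:**
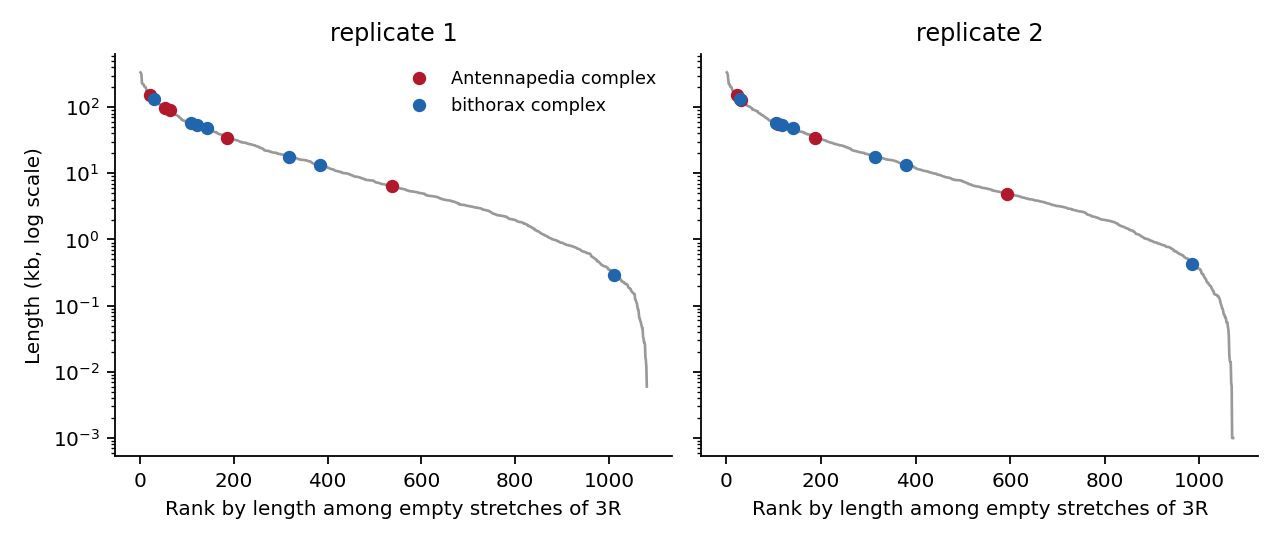
Length of every empty stretch of 3R in kb (vertical axis, log scale) against its rank by length, in each replicate, with the stretches that touch the Antennapedia and bithorax complexes marked. The longest marked stretches, 150.1 and 133.3 kb in replicate 1, rank 21 and 30 of 1081.

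The complexes were also compared with each other. The bithorax complex exceeded the Antennapedia complex in covered share by 0.29 percentage points in replicate 1 and by 0.11 in replicate 2, a mean of 0.20 ± 0.12 (SD, n = 2). Among the 50% of clusters with the better scores, A1 and B1 were the only ones left in the complexes, and the bithorax minus Antennapedia difference turned to -1.12 points. Without A1 the bithorax complex was higher by 1.98 points. The difference depended on the window edges: it was 2.89 points with the edges moved inward by 20 kb and 5.97 points with the edges moved outward. The combined set gave a difference of 0.21 points in the same direction as the replicates.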

How the data were processed

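Chromatin of Kc167 cells was profiled by ChIP-seq in 2 libraries, with 2 input libraries. The submitters' processing notes name Bowtie 0.12.7; which caller and threshold made the clusters, and how inputs entered, is not given in the sources used. The score of each region is as deposited by the authors, and coordinates are on release 5, per the file headers, counted from 1. Clusters were clipped to each window and their summed width divided by its length; the longest run of bases without a cluster was taken within the window. Flanks were 500 kb, background windows were placed every 10 kb, and clusters counted as shared from 1 bp of overlap. Values are means ± SD over 2 replicates, with no test. All clusters of the complexes are described, with the widest and the highest-scoring combined cluster of each flank. Members and lists were chosen with earlier results of these data known. The interval functions gave the known answer in 20 of 20 simulated sets. Python 3.11.15, numpy 2.4.6, pandas 2.3.3 and matplotlib 3.10.9 were used. The alternatives are listed with their effect in the closing section. Sequences and gene positions were not used here.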

Additional observations from a re-analysis of the deposited data

How the results depend on the processing

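Values are means over 2 replicates, for the Antennapedia and then the bithorax complex. Both complexes stayed below their flanks and under the median window of 3R in every alternative run. With the better-scoring 50% of each set, each complex kept 1 cluster, covered shares were 1.78% and 0.66%, differences from the flanks were -4.32 and -12.9 points, longest empty stretches were 353.3 and 280.2 kb, 1.84% and 0.69% of windows were at or below, and the bithorax minus Antennapedia difference turned to -1.12 points, since A1 is wider than B1. With windows narrowed by 20 kb at each edge the covered shares were 1.10% and 4.00%, the differences from the flanks -9.70 and -17.1 points, the windows at or below 0.23% and 3.14%, the Antennapedia count 2, its longest empty stretch 144.5 kb, and the difference between complexes 2.89 points. With windows widened by 20 kb the shares were 3.70% and 9.68%, the windows at or below 0.96% and 14.3%, the bithorax count 12.5, its difference from the flanks -9.72 points and the difference between complexes 5.97 points. Flanks of 250 kb gave -10.6 and -19.8 points, and flanks of 1 Mb gave -8.28 and -16.1 points. Windows that do not overlap each other gave 1.37% and 0% at or below. Merging clusters under 1 kb apart gave a bithorax share of 3.62%, a bithorax difference from the flanks of -18.2 points and 0.71% of windows for the Antennapedia complex. The combined set gave differences from the flanks of -8.25 and -19.3 points, 0.50% and 1.26% of windows, a bithorax share of 3.63% and a bithorax stretch of 133.2 kb. Without A1, added after the data were seen, the Antennapedia share was 1.53%, its difference from the flanks -8.61 points, and the difference between complexes 1.98 points. Only the complex lost a cluster here, while the flanks and the 3R windows kept all of theirs. The lowest 3R window was covered over 2.49% in replicate 1 and 2.57% in replicate 2. That 0% of windows were at or below is therefore not a comparison of like with like. Leaving out a replicate gives the value of the other one, which with 2 replicates always lies within their SD of the mean and says nothing about stability; the difference between complexes was 0.11 and 0.29 points. Under the other alternatives, 24 values stayed within the replicate SD or, for counts, within 1.5 times. No paired analysis was possible because no values of the input libraries, the only other group with the same replicate numbers, were at hand; differences within a ChIP library are given per replicate. Depth is unknown, so no value carries a counting error from reads.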
